A study of Mus musculus with 48 samples.

Results

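The collagen genes were read in RNA-Seq profiles of murine STHdh cells as the rows whose symbol has the form of a collagen alpha chain (Col, a type number, a, a chain number) and whose mean over the 48 samples was at least 1 on the table's log2 scale. This rule kept 34 of 43 such rows, in a table of 27281 rows. The Col25a1 row, with a mean of 1.04, was just inside the minimum, and the Col4a3 row, with a mean of 0.97, was just outside it. The other 8 rows below the minimum were Col6a4, Col6a5, Col6a6, Col9a1, Col9a2, Col13a1, Col14a1 and Col24a1, and Col19a1 was not analysed here.

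STHdh cells are conditionally immortalized striatal progenitor lines from knock-in mouse embryos, labelled as C57BL/6. The STHdhQ111 line carries huntingtin with an expanded polyglutamine stretch and the STHdhQ7 line carries the wild-type length. Each genotype was represented by a single line, so genotype and line cannot be told apart. All 48 samples came from cells kept in serum-free medium for 24 hours, 3 samples in each of 16 conditions. The vehicle controls were STHdhQ7 and STHdhQ111 cells, and the other 14 conditions were STHdhQ111 cells given a protective compound. These were DKI (diacylglycerol kinase inhibitor II), loxapine, cyproheptadine, selisistat and meclizine at 10 µM, pizotifen at 5 µM, cysteamine at 250 µM, sodium butyrate at 1 mM, 4-deoxypyridoxine at 4 mM, trichostatin A at 10 nM, fingolimod phosphate at 250 nM, nortriptyline at 1 nM, and nicotinamide and haloperidol at 0.5 nM. The comparison of the vehicle controls asks what differs between the mutant and wild-type lines, and each compound was compared with the STHdhQ111 vehicle control to ask what it altered in mutant cells. By the study's methods the vehicle was DMSO, while each compound came in DMSO or in water. For a compound given in water, the solvent could thus differ from the control as well. The 3 samples of a condition were labelled with 3 collection days, except that those of DKI and cyproheptadine were labelled with 2. These labels were used as given and could not be checked. The p-values measure the spread between such collections of a line. Haloperidol replicate 2 stood apart from the other haloperidol samples, with Nes at 7.14 against 4.88 and 5.03, Acta2 at 8.53 against 4.75 and 5.42, Col4a6 at 6.66 against 5.65 and 5.82, and Col18a1 at 9.70 against 8.88 and 8.90.

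Collagens, most of them secreted proteins of the extracellular matrix, are built from 3 alpha chains wound into a triple helix. Fibrillar types I, II, III, V and XI form banded fibrils, type IV forms the sheet of basement membranes, type VI forms beaded microfilaments near cells, and multiplexins such as type XVIII are basement membrane collagens that carry sugar chains. Several types are heterotrimers, so one molecule needs the products of different genes: type I is made mostly of Col1a1 and Col1a2 chains, the common type IV of Col4a1 and Col4a2, and type VI of Col6a1, Col6a2 and Col6a3. In brain, collagens are found mainly in the vascular basement membrane and the meninges, and serum-starved progenitor lines in culture need not follow that pattern.

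Promoter stretches are shown for the genes on which the comparisons turn. Col18a1 and Col4a6 had the largest positive differences between STHdhQ7 and STHdhQ111 cells, Col1a2 had the largest negative one, and Col3a1 had the largest falls with compounds. Col4a5 is shown because it starts 1308 bases from Col4a6 on the opposite strand. Each stretch lies within the 250 bases before the annotated start, was trimmed to leave out annotated exons, and is written 5′ to 3′ on the gene's strand from the RefSeq promoter table of GRCm38.p6. Capitals mark matches to any of 3 motifs. The first is CCAAT, which reads ATTGG where it lies on the opposite strand. The next is GGGCGG, which there reads CCGCCC. The last is TATAAA, which there reads TTTATA. No 2 marked matches share a base.
Col18a1 (chr10:77166549-77166780, minus strand): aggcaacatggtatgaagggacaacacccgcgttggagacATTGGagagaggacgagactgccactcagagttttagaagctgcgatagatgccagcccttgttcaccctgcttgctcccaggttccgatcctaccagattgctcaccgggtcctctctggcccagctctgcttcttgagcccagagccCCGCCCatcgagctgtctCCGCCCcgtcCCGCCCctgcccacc
Col4a6 (chrX:141474077-141474326, minus strand): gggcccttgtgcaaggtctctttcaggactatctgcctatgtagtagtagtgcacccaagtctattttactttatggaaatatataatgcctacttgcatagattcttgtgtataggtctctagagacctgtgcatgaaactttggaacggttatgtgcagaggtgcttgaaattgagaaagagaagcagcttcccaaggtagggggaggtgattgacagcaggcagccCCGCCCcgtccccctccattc
Col4a5 (chrX:141475169-141475384, plus strand): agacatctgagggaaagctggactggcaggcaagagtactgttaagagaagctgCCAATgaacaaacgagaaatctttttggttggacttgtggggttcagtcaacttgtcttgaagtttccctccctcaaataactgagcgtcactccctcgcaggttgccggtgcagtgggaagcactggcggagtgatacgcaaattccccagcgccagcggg
Col1a2 (chr6:4505370-4505492, plus strand): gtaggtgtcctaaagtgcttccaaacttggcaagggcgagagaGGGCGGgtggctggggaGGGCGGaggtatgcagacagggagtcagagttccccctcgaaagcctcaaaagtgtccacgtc
Col3a1 (chr1:45311288-45311537, plus strand): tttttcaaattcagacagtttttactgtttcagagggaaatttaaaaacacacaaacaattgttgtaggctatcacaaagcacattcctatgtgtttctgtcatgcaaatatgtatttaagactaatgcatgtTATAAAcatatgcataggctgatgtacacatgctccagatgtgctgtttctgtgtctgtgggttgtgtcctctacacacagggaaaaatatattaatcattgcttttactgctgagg
The marked stretches hold 3 copies of the GGGCGG motif and 1 of CCAAT in Col18a1, 1 GGGCGG in Col4a6, 1 CCAAT in Col4a5, 2 GGGCGG in Col1a2 and 1 TATAAA in Col3a1. The full 250 bases also held CCAAT in Col1a2 and GGGCGG in Col4a5, which the trimmed stretches leave out. Another promoter listed for Col18a1 had too short a stretch outside exons and is not shown. The table had a promoter for 27 of the 34 collagen genes, and none was read for Col1a1. Over the full 250 bases, GGGCGG was found in 17 of those 27 genes and in 32.7% of 32851 promoters of all genes. CCAAT was found in 11 of 27 against 33.8% of all promoters, and TATAAA in 4 of 27 against 12.4%. A collagen gene was counted where any of its listed promoters held the motif, while the other share is of single promoters. The shares are therefore not like for like. A match describes the letters only.

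STHdhQ7 and STHdhQ111 cells with vehicle differed in collagen genes in both directions. In a limma linear model over 13409 genes with the collection day as a term, 23 of the 34 collagen genes passed an adjusted p of 0.05, 14 higher and 9 lower in STHdhQ7 cells, where 55.8% of all tested genes passed, 29.2% higher and 26.6% lower. The samples of the lines did not overlap for 23 of the 34 collagen genes (67.6%) and for 58.2% of all tested genes. A difference of at least 1 on the log2 scale was seen for 9 collagen genes, against 5.44% of all tested genes. The median difference was 0.06 over the collagen genes and 0.004 over all genes, and the median absolute difference was 0.42 against 0.19. All 5 tested type IV chains and the multiplexin Col18a1 were higher in STHdhQ7 cells, and all 3 tested type VI chains and Col1a2 were lower. In such bulk samples, fewer cells of a kind and less RNA per cell cannot be told apart.

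**Figure D1:**
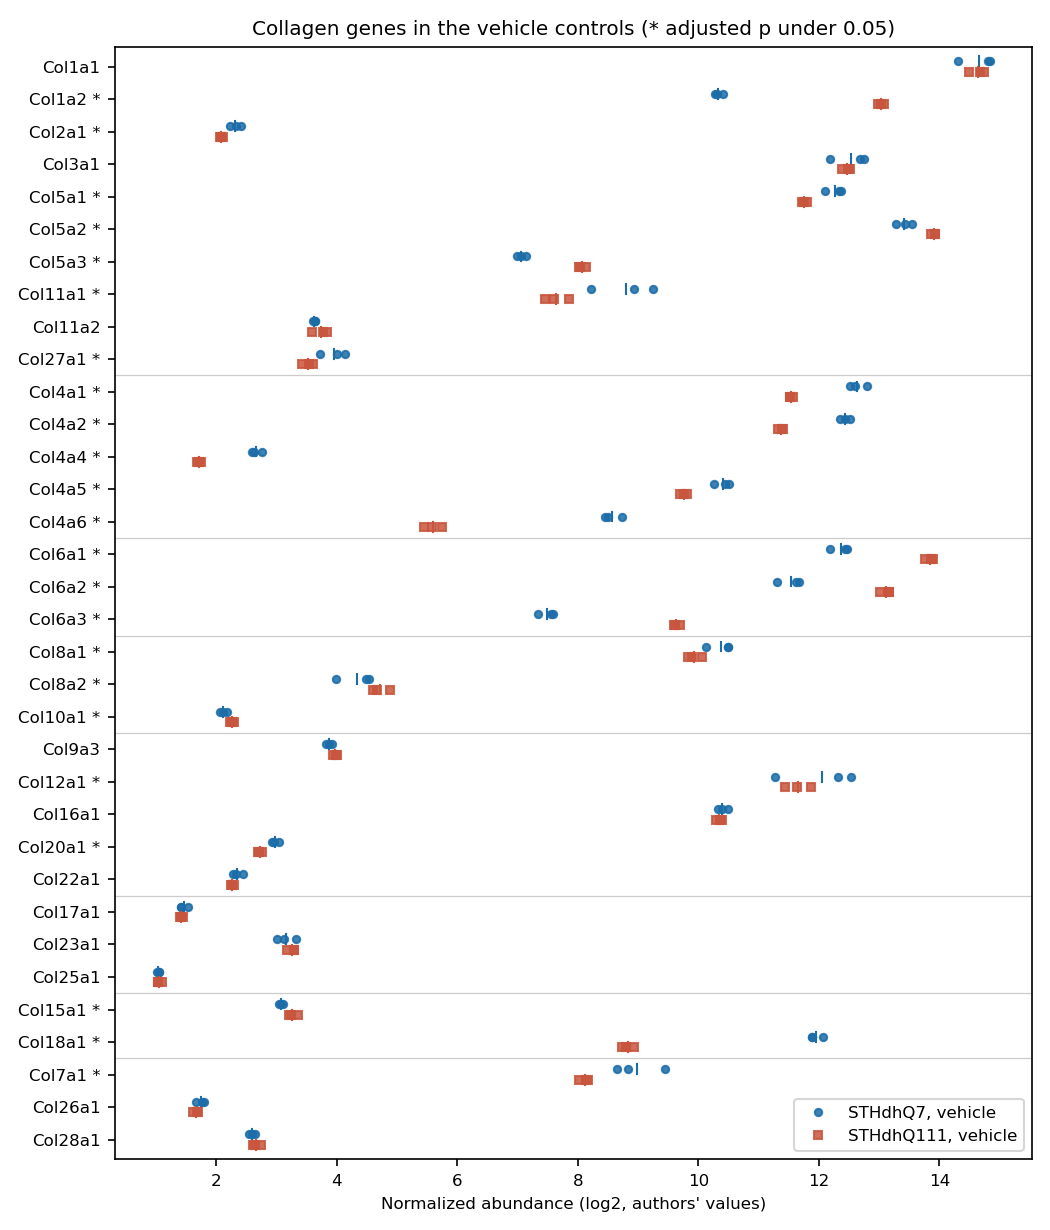
Abundance of the 34 collagen genes (rows, grouped by class) in the vehicle controls on the table's log2 scale, with 1 point per sample, a vertical tick at each mean and an asterisk where the adjusted p was under 0.05. The STHdhQ7 points lie far to the right of the STHdhQ111 points for Col18a1 and Col4a6 and far to the left for Col1a2 and Col6a3, and the Col1a1 points overlap.

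Among the fibrillar collagens, the type I chains parted. Col1a1, the main chain of type I collagen (ENSMUSG00000001506, chr11:94936224-94953042), read 14.31, 14.81 and 14.85 in the STHdhQ7 samples and 14.74, 14.50 and 14.67 in the STHdhQ111 samples. These values overlapped, with a difference of 0.02 (SE 0.12, adjusted p = 0.901). Col1a2, its partner chain (ENSMUSG00000029661, chr6:4504814-4541544), read 10.32, 10.28 and 10.40 in STHdhQ7 samples. In STHdhQ111 samples it read 13.08, 12.98 and 13.03, so every STHdhQ7 value was below every STHdhQ111 value. The log2 difference was -2.69 (SE 0.08, adjusted p = 5.78e-26), or 6.47-fold lower in STHdhQ7 cells.

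The gap between the type I chains within each sample, Col1a1 minus Col1a2, was therefore 4.32 ± 0.29 (SD, n = 3) in STHdhQ7 cells and 1.61 ± 0.08 in STHdhQ111 cells. The gaps did not overlap between the lines, and an exact permutation test gave its smallest possible two-sided p for 3 samples against 3, 0.1. Across the 14 compounds the mean gap in STHdhQ111 cells ran from 1.38 with DKI to 1.96 with sodium butyrate, so none approached the STHdhQ7 gap. Levels of different genes are not set side by side here, because the sources used do not say whether the values were divided by gene length.

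Col3a1, the type III chain that forms fibrils with type I, read 12.18, 12.74 and 12.68 in STHdhQ7 samples and 12.51, 12.39 and 12.48 in STHdhQ111 samples, and these overlapped (difference 0.08, SE 0.13, adjusted p = 0.639). The type V chains, which set the width of type I fibrils, went in different directions. Col5a1 was 0.51 higher in STHdhQ7 cells (SE 0.08, adjusted p = 5.57e-07), Col5a2 was lower with a difference of -0.49 (SE 0.10, adjusted p = 3.44e-05), and Col5a3 was lower with means of 7.07 and 8.06 (SE of the difference 0.10, adjusted p = 1.01e-10). For each of these 3 chains the samples of the lines did not overlap. Col11a1, a chain of the fibril-nucleating type XI, read 8.23, 9.26 and 8.94 in STHdhQ7 samples and 7.86, 7.45 and 7.60 in STHdhQ111 samples, a difference of 1.17 (SE 0.16, adjusted p = 4.91e-08). Its partner Col11a2 did not pass (-0.10, SE 0.08, adjusted p = 0.287). Col27a1 (0.43) and the cartilage chain Col2a1 (0.23) passed with higher values in STHdhQ7 cells, where Col2a1 had a mean of 2.32 against 2.08, near the bottom of the scale.

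The type IV chains were higher in STHdhQ7 cells without exception among the 5 tested. Col4a1 (ENSMUSG00000031502, chr8:11198423-11312826) read 12.80, 12.52 and 12.60 against 11.57, 11.52 and 11.52, a difference of 1.10 (SE 0.09, adjusted p = 1.37e-13). Col4a2 (ENSMUSG00000031503, chr8:11312805-11449287) read 12.52, 12.35 and 12.44 against 11.41, 11.32 and 11.39, a difference of 1.06 (SE 0.08, adjusted p = 1.04e-13). These chains assemble together, their genes lie head to head and share 22 bases at their starts, and the gap between them was 0.20 ± 0.07 in STHdhQ7 samples and 0.17 ± 0.03 in STHdhQ111 samples, an overlap (exact permutation test, two-sided p = 0.6). The library kit kept strand, and whether the counting used it is not given in the sources used here.

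The other type IV chains, used in specialised basement membranes such as those of kidney and eye, also lie in head-to-head pairs. Col4a6 (ENSMUSG00000031273, chrX:141165403-141474076) read 8.45, 8.74 and 8.51 in STHdhQ7 samples and 5.74, 5.58 and 5.45 in STHdhQ111 samples. Its difference of 2.97 (SE 0.15, adjusted p = 1.46e-19) is 7.86-fold. Its neighbour Col4a5 (ENSMUSG00000031274, chrX:141475385-141689234) read 10.27, 10.51 and 10.44 against 9.76, 9.81 and 9.70, a difference of 0.65 (SE 0.07, adjusted p = 6.00e-10). The Col4a5 to Col4a6 gap was thus 1.84 ± 0.08 in STHdhQ7 cells and 4.16 ± 0.13 in STHdhQ111 cells, with no overlap (exact permutation test, two-sided p = 0.1). Col4a4 had a mean of 2.66 in STHdhQ7 cells and 1.72 in STHdhQ111 cells (difference 0.94, SE 0.05, adjusted p = 5.12e-18), and Col4a3, which starts 71 bases from it and was too low to be tested, had means of 1.82 and 0.90.

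Type VI collagen went the other way. Col6a1 (ENSMUSG00000001119, chr10:76708792-76726168) read 12.19, 12.43 and 12.47 in STHdhQ7 samples and 13.89, 13.77 and 13.86 in STHdhQ111 samples, a difference of -1.48 (SE 0.09, adjusted p = 8.44e-18). Col6a2 (ENSMUSG00000020241, chr10:76595762-76623630) read 11.31, 11.62 and 11.67 against 13.17, 13.02 and 13.16, a difference of -1.59 (SE 0.10, adjusted p = 3.65e-17). Col6a3 (ENSMUSG00000048126, chr1:90765923-90843971) read 7.60, 7.55 and 7.34 against 9.69, 9.61 and 9.59, a difference of -2.14 (SE 0.11, adjusted p = 7.70e-19). For all 3 chains every STHdhQ7 sample was below every STHdhQ111 sample, and the fold was 2.78, 3.01 and 4.41 lower in STHdhQ7 cells. The alternative chains Col6a4, Col6a5 and Col6a6 were below the minimum, with means between -1.92 and -1.64.

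**Figure D2:**
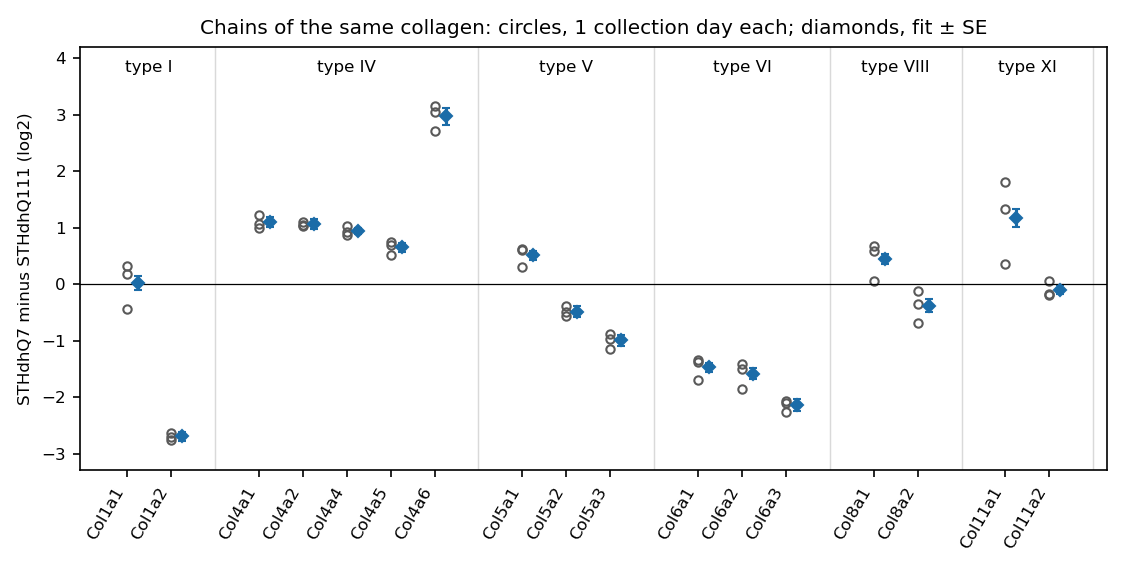
Difference between STHdhQ7 and STHdhQ111 vehicle controls (vertical axis, log2) for chains that belong to the same collagen type, with circles for each of the 3 collection days and diamonds for the fitted difference with its SE. The 5 type IV chains lie above 0, the 3 type VI chains below it, and the type I and type V chains lie apart from each other.

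Col18a1, a basement membrane multiplexin whose end fragment is endostatin, had the largest difference of the family. It read 12.07, 11.89 and 11.89 in STHdhQ7 samples and 8.94, 8.74 and 8.81 in STHdhQ111 samples. The difference of 3.12 (SE 0.14, adjusted p = 5.87e-21) is 8.69-fold, and it was 3.13, 3.15 and 3.08 within the 3 collection days. The other multiplexin, Col15a1, was slightly lower in STHdhQ7 cells (-0.19, SE 0.07, adjusted p = 0.0156), with means of 3.07 and 3.26.

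The remaining classes moved less. Col7a1, which makes the anchoring fibrils below epithelia, was 0.86 higher in STHdhQ7 cells (SE 0.15, adjusted p = 7.54e-06). The network chains of type VIII, which line vessels and the cornea, passed in opposite directions, Col8a1 at 0.44 (adjusted p = 4.00e-05) and Col8a2 at -0.38 (adjusted p = 0.00437), and the growth plate chain Col10a1 was at -0.14 (adjusted p = 0.0058). Of 5 tested fibril-associated collagens, Col20a1 was higher in STHdhQ7 cells at 0.26 (adjusted p = 1.72e-05). Col12a1 also passed at 0.40 (SE 0.16, adjusted p = 0.0324), while Col9a3, Col16a1 and Col22a1 did not pass. None of the 3 transmembrane collagens passed (unadjusted p at least 0.05 for each), Col17a1, Col23a1 and Col25a1 having differences between -0.10 and 0.04, and Col26a1 and Col28a1 did not pass either. The annotated gene Nt5dc1 overlaps Col10a1 on the opposite strand, and Tcfl5 overlaps Col9a3 in the same way, so their reads could be shared. Slc19a1 and Gm7775 overlap Col18a1 on the opposite strand, as Gm15078 and Gm15079 do Col4a6, which Gm15077 overlaps on its own strand. Other collagen genes, among them Col1a2 and Col6a3, also overlap annotated genes. Whether exons overlap was not examined.

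STHdhQ7 replicate 1 stood apart from the other STHdhQ7 samples for several collagens. On collection day 1 the STHdhQ7 minus STHdhQ111 difference was -0.43 for Col1a1, -0.33 for Col3a1, 0.37 for Col11a1 and -0.58 for Col12a1. On days 2 and 3 it was 0.31 and 0.18 for Col1a1, 0.36 and 0.20 for Col3a1, 1.80 and 1.33 for Col11a1, and 0.90 and 0.88 for Col12a1. The Col12a1 call rests on this spread: its samples overlapped between the lines, and it did not pass without STHdhQ7 replicate 2 (adjusted p = 0.457) or replicate 3 (0.252), or without STHdhQ111 replicate 2 (0.078) or replicate 3 (0.162). Col8a2 (0.137) and Col10a1 (0.063) did not pass without STHdhQ7 replicate 1, and Col15a1 (0.125) did not pass without STHdhQ111 replicate 3. Between days, the sign of the difference was the same for Col1a2, Col18a1 and all tested type IV and type VI chains.

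Markers of cell identity differed between the lines too. Of 9 tested striatal and neural progenitor markers, 5 were higher and 1 was lower in STHdhQ7 cells, where 55.8% of all tested genes passed. Nes, the progenitor filament nestin, averaged 10.95 in STHdhQ7 cells and 4.96 in STHdhQ111 cells, the transcription factor Sox2 averaged 8.91 and 4.81, and Pax6 averaged 5.41 and 2.81, while Foxp1 was lower at 9.21 against 9.99. The ganglionic eminence factors Dlx1 and Dlx2 were measured at 5.30 to 5.99 in both lines and did not pass, and Dlx5, Fabp7, Bcl11b and Drd1 were below the minimum in this table.

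Of 10 tested fibroblast and mesenchymal markers, 4 were lower in STHdhQ7 cells, led by Fbln1 (-2.04) and Pdgfra (-1.33), and 2 were higher, S100a4 (0.32) and Postn (0.17), a share near the 55.8% of all tested genes. The log2 of their summed level was 15.56 to 15.80 in STHdhQ7 samples and 15.75 to 15.85 in STHdhQ111 samples, and Thy1 and Lum were below the minimum in both lines. Sums over genes, here and below, are weighted toward the genes with the highest values and need not follow the other members. Of 4 tested smooth muscle and pericyte markers, 3 were higher in STHdhQ7 cells. Acta2, smooth muscle actin, averaged 11.13 and 4.57, Tagln averaged 4.98 and 2.95, and Myh11, Cnn1 and Rgs5 were below the minimum. The summed level was 11.34 to 12.21 against 9.03 to 9.07. Of 4 tested endothelial markers 2 were higher, Tek and Vwf, with Cdh5 and Tie1 below the minimum and a summed level of 7.95 to 8.53 against 7.70 to 9.19. Of 4 tested glial markers Aldh1l1 was higher and Mbp was lower. The part of these markers in the collagen differences was not tested.

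Genes that make, process and sense collagen are counted here beside the 55.8% of all tested genes that passed. Of 19 tested genes for chain modification and folding, 9 were higher and 4 lower in STHdhQ7 cells. The largest rises were Plod2, a lysyl hydroxylase, at 1.10 (SE 0.08) and P4ha1, a subunit of prolyl hydroxylase, at 0.89 (SE 0.07), and the collagen chaperone Serpinh1 was higher at 0.57. The largest falls were the coat protein Sec23a at -0.64 and the alternative hydroxylase subunit P4ha2 at -0.62. Of 10 tested genes for processing and crosslinking, 4 were higher and 4 lower. The lysyl oxidases Lox (-1.18, SE 0.11) and Loxl4 (-1.05, SE 0.10) fell most, and the procollagen proteinases Bmp1 and Adamts2 were both higher at 0.42.

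Of 7 tested collagen receptors, 4 were higher and 2 lower in STHdhQ7 cells. Ddr1, a receptor kinase that binds fibrillar and type IV collagen, was higher at 1.17 (SE 0.07), while Ddr2, its relative that binds fibrillar collagen, was lower at -1.90 (SE 0.07). The integrin chain Itga1 was higher at 0.85 and the collagen uptake receptor Mrc2 was lower at -0.47. Of 8 tested genes of degradation, 4 were higher, led by the inhibitor Timp3 (1.55) and Mmp16 (0.93), and 2 were lower, the gelatinase Mmp2 (-1.34) and Timp2 (-0.17). Of 12 genes for TGF-beta, a known inducer of collagen genes, 6 were higher and 3 lower. The target Ctgf (1.54) was higher, and the target Tgfbi (-1.95) and the receptor Tgfbr2 (-1.21) were lower, so the list did not move one way.

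The compounds changed fewer collagen genes, and most of those changes were falls. Against the STHdhQ111 vehicle control, DKI lowered 16 of the 34 collagen genes and raised 0, where 42.3% of all tested genes passed, 21.9% lower and 20.4% higher. Cyproheptadine lowered 12 and raised 2, where 35.6% of all genes passed, 18.2% lower and 17.5% higher. Meclizine lowered 13 and raised 0, where 26.8% passed, 13.6% lower and 13.1% higher. Pizotifen lowered 6 and raised 1, where 17.9% passed, 9.07% lower and 8.86% higher. The share of collagen genes called was 47.1% for DKI, 41.2% for cyproheptadine, 38.2% for meclizine and 20.6% for pizotifen. Over all genes the calls were split about evenly between directions, and most of these collagen calls were lower.

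Loxapine raised 5 collagen genes and lowered 3, where 21.9% of all tested genes passed, 10.1% higher and 11.8% lower. Sodium butyrate raised 8 and lowered 2, where 37.5% passed, 19.6% higher and 17.8% lower. Trichostatin A raised 2 and lowered 3, where 13.1% passed, 6.41% higher and 6.68% lower. The 4-deoxypyridoxine samples had 2 lower and 0 higher, where 20.1% passed, 11.2% lower and 8.93% higher, and nicotinamide raised 1 and lowered 0, where 10.4% passed, 2.82% higher and 7.59% lower. For trichostatin A, 4-deoxypyridoxine and nicotinamide the share of collagen genes called was at most 14.7%.

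No collagen gene passed with selisistat, nortriptyline, fingolimod phosphate, haloperidol or cysteamine in the limma model. Of all tested genes, 0.515% passed with selisistat, 3.83% with nortriptyline, 0.0597% with fingolimod phosphate, 0% with haloperidol and 7.83% with cysteamine. At an unadjusted p under 0.05, 5 collagen genes were reached with selisistat, 5 with nortriptyline, 1 with fingolimod phosphate, 2 with haloperidol and 2 with cysteamine. All 14 comparisons used the same 3 vehicle samples and are not independent of each other.

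**Figure D3:**
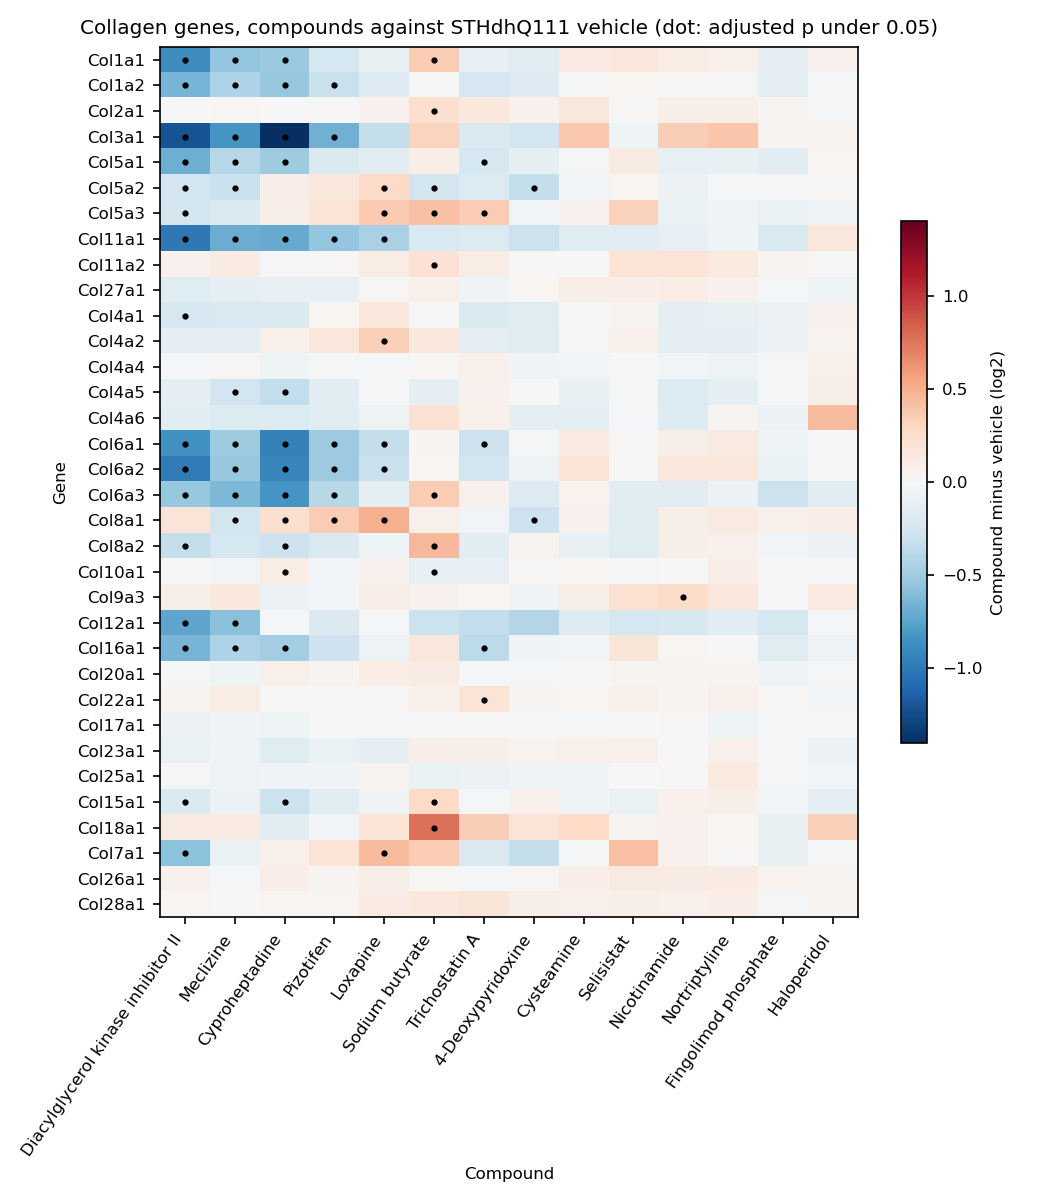
Difference from the STHdhQ111 vehicle control (colour, log2) for each collagen gene (rows) and compound (columns), with a dot where the adjusted p was under 0.05. Blue fills the rows of Col3a1, Col11a1 and the 3 type VI chains under DKI, meclizine, cyproheptadine and pizotifen, and the darkest cell is Col3a1 with cyproheptadine at -1.39.

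Type III collagen fell most. Col3a1 read 12.51, 12.39 and 12.48 in the STHdhQ111 vehicle samples. It read 11.08, 11.16 and 10.94 with cyproheptadine (difference -1.39, SE 0.13, adjusted p = 2.12e-10), and 10.98, 11.53 and 11.23 with DKI (-1.21, SE 0.13, adjusted p = 1.12e-09). With meclizine it read 11.71, 11.55 and 11.66 (-0.82, SE 0.13, adjusted p = 6.32e-06), and with pizotifen 11.72, 11.83 and 11.82 (-0.67, SE 0.13, adjusted p = 2.51e-04). Every sample of these 4 compounds was below every vehicle sample, and the fall was 2.62-fold with cyproheptadine and 2.31-fold with DKI. With loxapine the difference was -0.34 and did not pass (adjusted p = 0.0536), while against the mean of nicotinamide and nortriptyline, collected at the same days and times as loxapine, it was -0.71 and passed (adjusted p = 1.08e-05). Cysteamine, nicotinamide and nortriptyline, all collected at these days and times, gave differences of 0.35 to 0.39 from vehicle that did not pass. The loxapine difference of -0.71 thus includes the higher level of its controls. Against the same controls, Col3a1 also passed with 4-deoxypyridoxine (-0.64, adjusted p = 0.00025), where it was not called against vehicle.

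All 3 type VI chains fell with the same 4 compounds. Col6a1, at 13.89, 13.77 and 13.86 with vehicle, read 12.83, 12.99 and 12.83 with cyproheptadine (-0.95, SE 0.09, adjusted p = 1.29e-10). It read 12.72, 13.17 and 13.08 with DKI (-0.85, adjusted p = 3.02e-10), 13.33, 13.36 and 13.30 with pizotifen (-0.51, adjusted p = 4.70e-05), and fell by 0.50 with meclizine. None of these samples reached the vehicle range. Col6a2 fell by 0.92 with cyproheptadine, 0.98 with DKI, 0.53 with meclizine and 0.51 with pizotifen, and Col6a3 fell by 0.83, 0.53, 0.63 and 0.39 with the same compounds in that order. Loxapine lowered Col6a1 (-0.33, adjusted p = 0.00409) and Col6a2 (-0.31, adjusted p = 0.0185), and trichostatin A lowered Col6a1 (-0.29, adjusted p = 0.0213). The Col6a2 call with loxapine and the Col6a1 call with trichostatin A were each lost without any one of 4 of the 6 samples (adjusted p up to 0.104 and 0.149), and that of Col6a3 with pizotifen without either of 2 (up to 0.0947). The log2 of the summed type VI level was 14.49 to 14.62 with vehicle, 13.40 to 13.87 with DKI, 13.57 to 13.75 with cyproheptadine and 12.85 to 13.15 in STHdhQ7 cells.

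Both type I chains fell with DKI, meclizine and cyproheptadine. Col1a1, at 14.74, 14.50 and 14.67 with vehicle, read 13.63, 13.87 and 13.75 with DKI (-0.87, SE 0.12, adjusted p = 1.88e-07). It read 14.05, 14.11 and 14.08 with meclizine (-0.55, adjusted p = 5.14e-04) and 14.10, 14.21 and 14.02 with cyproheptadine (-0.52, adjusted p = 8.37e-04), and none of these samples overlapped the vehicle samples. Col1a2 fell by 0.65 with DKI, 0.53 with cyproheptadine, 0.44 with meclizine and 0.31 with pizotifen. Sodium butyrate raised Col1a1 to 15.01, 15.08 and 14.88 (0.35, SE 0.12, adjusted p = 0.0175), while Col1a2 with sodium butyrate averaged 13.02 against 13.03 with vehicle. In selisistat, Col1a1 read 14.58, 15.14 and 14.62, so replicate 2 stood apart.

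Col11a1, at 7.86, 7.45 and 7.60 with vehicle, fell with 5 compounds. It read 6.55, 6.87 and 6.48 with DKI (SE of the difference 0.16, adjusted p = 2.63e-06), and fell by 0.71 with cyproheptadine, 0.70 with meclizine, 0.55 with pizotifen and 0.45 with loxapine. Col5a1 fell with DKI (-0.68), cyproheptadine (-0.50), meclizine (-0.40) and trichostatin A (-0.25), and the fibril-associated Col16a1 fell with DKI (-0.65), cyproheptadine (-0.49), meclizine (-0.43) and trichostatin A (-0.37). Col12a1 fell with DKI (-0.73, samples 10.98, 10.97 and 10.78 against 11.86, 11.64 and 11.44) and meclizine (-0.58) and not with cyproheptadine, where the difference was -0.03 (adjusted p = 0.926). Its highest difference over all 14 compounds was -0.01, so the shared vehicle samples had the highest Col12a1 mean of the STHdhQ111 conditions.

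Other chains rose. Col8a1, at 10.06, 9.90 and 9.82 with vehicle, read 10.47, 10.38 and 10.43 with loxapine (0.50, SE 0.09, adjusted p = 7.25e-05) and 10.30, 10.28 and 10.28 with pizotifen (0.36, adjusted p = 0.00328). It also rose with cyproheptadine (0.22, adjusted p = 0.0442, with overlapping samples), and it fell with 4-deoxypyridoxine (-0.29, samples 9.69, 9.62 and 9.62, adjusted p = 0.0168) and meclizine (-0.26, adjusted p = 0.0221), calls that 2 single samples each could end. Loxapine also raised Col7a1 (0.45), Col5a3 (0.36), Col4a2 (0.34) and Col5a2 (0.27). Col7a1 fell with DKI (-0.57, adjusted p = 0.00265).

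**Figure D4:**
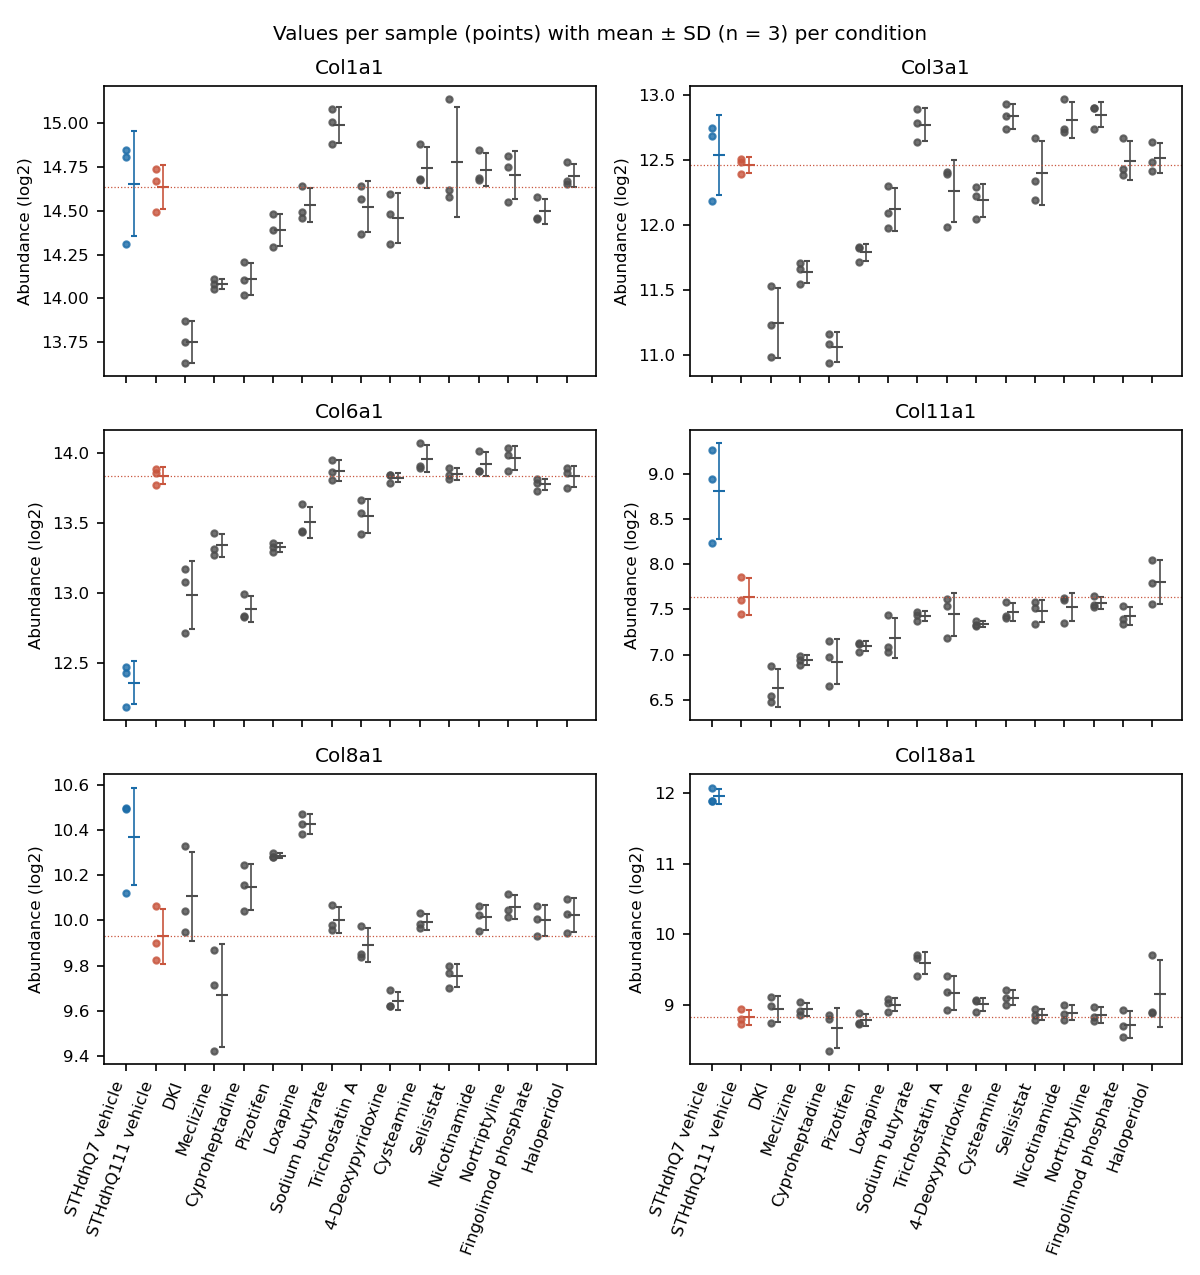
Abundance (log2) of Col1a1, Col3a1, Col6a1, Col11a1, Col8a1 and Col18a1 in all 16 conditions, with points for the 3 samples of a condition, bars for the mean ± SD and a dotted line at the STHdhQ111 vehicle mean. Col3a1 and Col6a1 lie below the line with DKI, meclizine, cyproheptadine and pizotifen, and no compound brings Col18a1 (at most 9.70 in a sample) near the STHdhQ7 samples (at least 11.89).

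Sodium butyrate, an inhibitor of histone deacetylases, gave a different set. Col18a1, at 8.94, 8.74 and 8.81 with vehicle, rose to 9.42, 9.70 and 9.67 (0.77, SE 0.14, adjusted p = 4.90e-05), a 1.70-fold rise with no overlap. Col8a2 (0.45), Col5a3 (0.41), Col6a3 (0.35), Col15a1 (0.28), Col2a1 (0.22) and Col11a2 (0.21) also rose, and Col5a2 (-0.26) and Col10a1 (-0.12) fell. Its largest negative difference, Col12a1 at -0.30, did not pass. Trichostatin A inhibits the same enzymes and was given at 10 nM against 1 mM of sodium butyrate, so the doses are not matched. Beside the sodium butyrate values, trichostatin A gave Col5a3 0.36 (adjusted p = 0.0174), Col18a1 0.35 (adjusted p = 0.1), Col6a3 0.06 and Col1a1 -0.11, the last 3 without passing. Col18a1 with trichostatin A did pass with only the compared conditions in the fit (0.35, adjusted p = 0.0146). It also passed without trichostatin A replicate 2 (0.49, 0.0342), though not when any other single sample was left out. Nicotinamide raised Col9a3 to 4.28, 4.33 and 4.10 from 3.95, 3.99 and 4.00 (0.26, adjusted p = 0.0269). That call was lost when STHdhQ111 replicate 1 (adjusted p = 0.141) or 2 (0.0648), or nicotinamide replicate 1 (0.0846) or 2 (0.194), was left out.

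Each compound comparison was also fitted without each of its single samples, where vehicle stands for STHdhQ111. Cyproheptadine kept 11 of its 14 calls without any one sample, meclizine 10 of 13, DKI 10 of 16, sodium butyrate 6 of 10, pizotifen 5 of 7 and loxapine 3 of 8, while trichostatin A, 4-deoxypyridoxine and nicotinamide kept 0 of 5, 0 of 2 and 0 of 1. The calls of Col1a1, Col3a1, Col6a1, Col6a2 and Col11a1 for cyproheptadine, DKI and meclizine were kept throughout.

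With meclizine, Col12a1 did not pass without vehicle replicate 1 (adjusted p = 0.0613), Col8a1 without vehicle replicate 1 (0.174) or meclizine replicate 3 (0.299), and Col5a2 without meclizine replicate 1 (0.0631) or 3 (0.0851). With cyproheptadine, Col8a1 did not pass without vehicle replicate 2 (0.123) or 3 (0.198) or cyproheptadine replicate 1 (0.192) or 2 (0.0837). Col8a2 and Col10a1, the other cyproheptadine calls that were lost, did not pass without 4 of the 6 samples each (0.0696 to 0.223 and 0.0868 to 0.230). With pizotifen, Col11a1 did not pass without vehicle replicate 1 (0.115) or pizotifen replicate 2 (0.0541), and Col6a3 without the same samples (0.0651 and 0.0947).

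Of the DKI calls, Col7a1 did not pass without DKI replicate 1 (adjusted p = 0.0538), Col8a2 without vehicle replicate 2 (0.121) or DKI replicate 3 (0.0746), and Col15a1 without vehicle replicate 3 (0.140) or DKI replicate 1 (0.157) or 3 (0.0563). Col5a3 did not pass without any one of the 6 samples (0.0601 to 0.132), Col4a1 without any of the 6 except DKI replicate 3 (0.0547 to 0.211), and Col5a2 without vehicle or DKI replicate 2 or 3 (0.0653 to 0.109).

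The loxapine calls that were kept were Col6a1, Col4a2 and Col8a1. Col11a1 did not pass without vehicle replicate 1 (adjusted p = 0.216) or 3 (0.0609) or loxapine replicate 2 (0.140) or 3 (0.146), and Col6a2 without the same samples (0.0669 to 0.104). Col7a1 did not pass without any of the 6 samples except loxapine replicate 1 (0.0628 to 0.167), Col5a2 without any except loxapine replicate 2 (0.0548 to 0.166), and Col5a3 without loxapine replicate 1 (0.0537).

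Of the sodium butyrate calls, Col18a1 was kept. Col1a1 did not pass without vehicle replicate 2 (adjusted p = 0.122) or sodium butyrate replicate 1 (0.0504) or 2 (0.0709), and Col5a2 without vehicle replicate 2 (0.0848) or 3 (0.0779) or sodium butyrate replicate 2 (0.215). Col11a2 did not pass without vehicle or sodium butyrate replicate 1, vehicle replicate 3 or sodium butyrate replicate 2 (0.0628 to 0.232), and Col10a1 without vehicle replicate 1 or 3 or sodium butyrate replicate 1 (0.0685 to 0.145).

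None of the 5 trichostatin A calls was kept, and without vehicle replicate 1 or 3 it had 0 lower calls. Col6a1 and Col16a1 did not pass without vehicle replicate 1 or 3 or trichostatin A replicate 1 or 2 (adjusted p = 0.0618 to 0.149 and 0.0750 to 0.144), and Col5a1 without any vehicle replicate or trichostatin A replicate 2 (0.0524 to 0.267). Col5a3 did not pass without vehicle replicate 1 (0.0769) or trichostatin A replicate 1 (0.205) or 3 (0.0882), and Col22a1 without vehicle replicate 2 (0.0614) or trichostatin A replicate 1 (0.183). With 4-deoxypyridoxine, Col8a1 did not pass without vehicle replicate 1 (0.146) or 4-deoxypyridoxine replicate 2 (0.0708), and Col5a2 without 4-deoxypyridoxine replicate 2 (0.0545).

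Cyproheptadine and pizotifen are closely related tricyclic antihistamines that share a piperidine ring, with a thiophene ring in pizotifen in place of one benzene ring, and were given at 10 µM and 5 µM. At these unequal doses Col3a1 differed from vehicle by -1.39 and -0.67, Col6a1 by -0.95 and -0.51, Col11a1 by -0.71 and -0.55, and Col8a1 by 0.22 and 0.36. The values are given side by side without a comparison.

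The study grouped cyproheptadine, loxapine and pizotifen (Group A) apart from DKI and meclizine (Group B) by their metabolite profiles. In its RNA profiles, the type of data used here, these compounds clustered together. Directly compared, 15 collagen genes were higher and 1 was lower in Group A, where 41.3% of all tested genes passed, 19.9% higher and 21.4% lower. Each side is an average over its 3 or 2 compounds. Loxapine was collected at combinations of day and time of day that no Group B compound shared. Group and collection time therefore cannot be fully told apart. The p-values measure the spread between samples, not between the compounds of a group. Col3a1 was called higher in Group A, although its largest fall from vehicle was with cyproheptadine (-1.39). For Col7a1, loxapine gave the highest difference from vehicle (0.45) and DKI the lowest (-0.57). Col12a1 (0.58, SE 0.10, adjusted p = 1.77e-05), Col7a1 (0.57, adjusted p = 9.90e-06), Col5a2 (0.46), Col5a3 (0.44), Col1a1 (0.43) and Col8a1 (0.40) had the largest differences, and Col9a3 was lower (-0.13). The Col9a3 call was lost without any one of 9 of the 15 samples (adjusted p = 0.0527 to 0.235), with no minimum mean (0.0567) and with only the compared conditions in the fit (0.0853). Of the higher calls, Col3a1 was lost without any one of 8 samples (up to 0.170), Col11a1 of 5 (up to 0.0762) and Col6a2 of 3 (up to 0.156). The type VI chains Col6a1 (0.07, adjusted p = 0.298) and Col6a3 (0.13, adjusted p = 0.171) did not pass, and Col6a2 did (0.18, adjusted p = 0.0186). Samples of both groups overlapped for 13 of the 16 called genes, the exceptions being Col5a3, Col12a1 and Col20a1.

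Across the 15 conditions of STHdhQ111 cells, chains of one collagen varied together to unequal degrees. The Pearson correlation of condition means was 0.992 for Col6a1 and Col6a2, 0.955 for Col1a1 and Col1a2, 0.803 for Col4a1 and Col4a2, 0.795 for Col6a1 and Col6a3, 0.611 for Col4a5 and Col4a6, and -0.0745 for Col8a1 and Col8a2. These are descriptions over 15 conditions of one line, whose points share the collection days, and each chain pair was measured in the same libraries. Col6a1 and Col6a2 lie on the same strand of chromosome 10, 85161 bases apart, while Col1a1 and Col1a2 lie on different chromosomes.

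**Figure D5:**
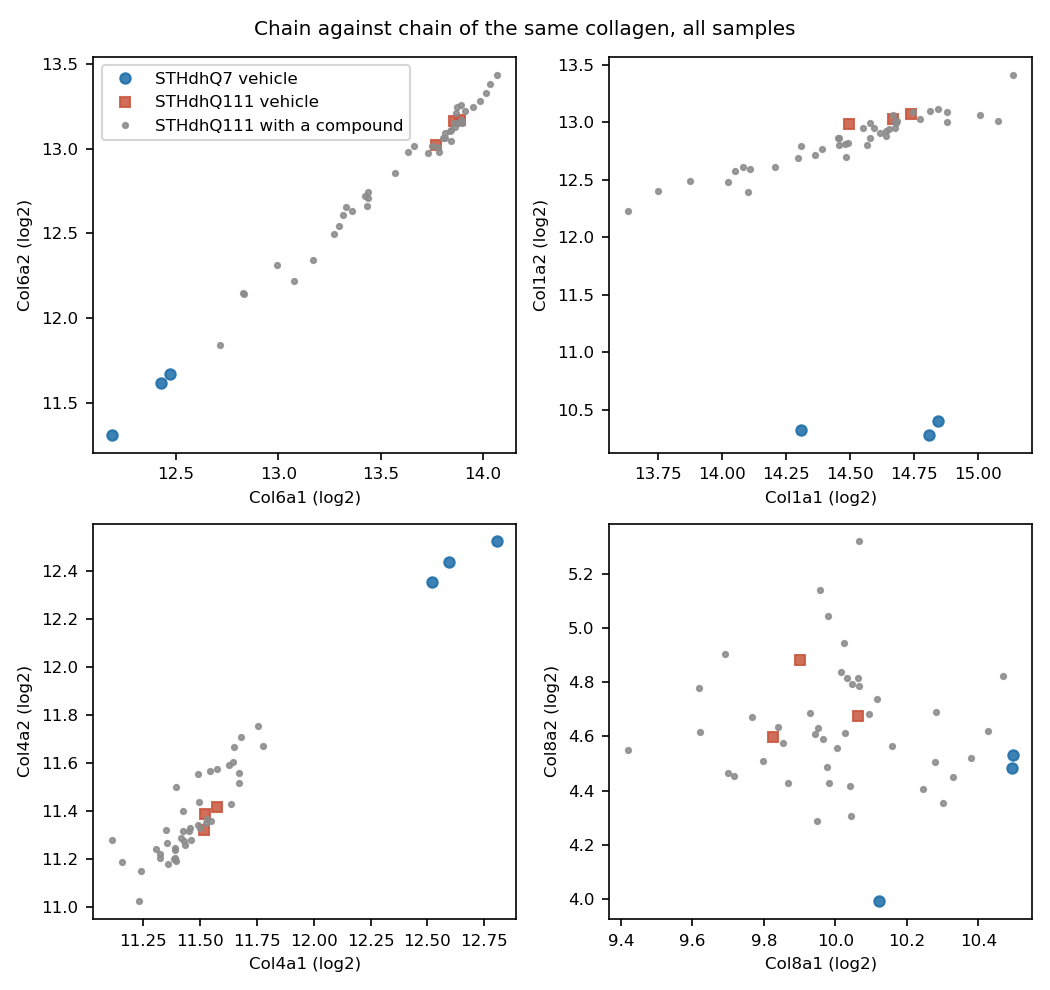
Abundance of one chain against its partner chain (both axes log2) in all 48 samples for Col6a1 and Col6a2, Col1a1 and Col1a2, Col4a1 and Col4a2, and Col8a1 and Col8a2. The STHdhQ7 samples continue the line of the STHdhQ111 samples for type VI and type IV, lie far below it for type I (Col1a2 at 10.28 to 10.40), and the type VIII points form no line.

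The genes that modify and fold collagen chains did not follow the collagens under every compound. Cyproheptadine, which lowered 12 collagen genes, raised 14 of 19 tested modification genes and lowered 2, where 35.6% of all tested genes passed. P4ha1 rose by 0.71, P4ha2 by 0.56 and the hydroxylase partner P4hb by 0.46. Pizotifen raised 9 and lowered 1 (17.9% of all genes), loxapine raised 7 and lowered 1 (21.9%), meclizine raised 1 (26.8%), and DKI raised 3 and lowered 8 (42.3%), with Fkbp14 (-0.42) and P4ha3 (-0.37) the largest falls. Of 12 TGF-beta genes, DKI lowered 7, among them the ligand Tgfb3 (-1.08) and the receptor Tgfbr2 (-0.83), and cyproheptadine lowered 5 and raised 4. The target Ctgf (0.95) rose with cyproheptadine while the target Tgfbi (-0.96) fell. Of 10 fibroblast and mesenchymal markers DKI lowered 6 and raised 1, cyproheptadine lowered 3 and raised 1, and meclizine lowered 3, beside the same shares of all genes. The part of these genes in the collagen changes was not tested.

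Collection time moved with the compounds. The vehicle, STHdhQ7 and selisistat samples were collected at the same combinations of day and time of day. By the labels, DKI and cyproheptadine shared 2 of their 3 combinations with vehicle. The other compounds shared none, so for those compound and collection time cannot be fully told apart. At the 2 shared combinations, Col3a1 differed from the vehicle sample by -0.86 and -1.25 with DKI and by -1.23 and -1.54 with cyproheptadine, and Col6a1 by -0.60 and -0.78 and by -0.78 and -1.03. These falls were thus present at matched day and time. For 7 other compounds the counts were recomputed with control conditions of the same combinations. Against the mean of fingolimod phosphate and haloperidol, 15 collagen genes passed for meclizine (28.8% of all tested genes), 8 for pizotifen (17.3%) and 4 for trichostatin A (14.4%). Against the mean of nicotinamide and nortriptyline, 12 passed for sodium butyrate (30.8%), 11 for loxapine (22.8%), 4 for 4-deoxypyridoxine (10.6%) and 0 for cysteamine (0.119%). Col3a1 differed by -0.87 with meclizine, -0.72 with pizotifen and -0.71 with loxapine against these controls, Col6a1 by -0.46, -0.48 and -0.44, and Col18a1 by 0.72 with sodium butyrate. The trichostatin A falls of Col5a1 (adjusted p = 0.0542) and Col16a1 (0.0871), the pizotifen fall of Col6a3 (0.278) and the sodium butyrate changes of Col5a2 (0.0533) and Col11a2 (0.670) did not pass against these controls. Other calls were gained. With meclizine these were falls of Col4a6 and Col4a1, and with trichostatin A a rise of Col6a3 (0.28). Pizotifen gained a rise of Col5a3 and a fall of Col4a5. Loxapine gained falls of Col3a1 and Col1a2 and a rise of Col4a1, and 4-deoxypyridoxine gained falls of Col3a1 and Col9a3. Sodium butyrate gained rises of Col4a2 (0.29) and Col5a1 and falls of Col25a1 and Col26a1. These control conditions are themselves compounds. Without haloperidol replicate 2 the counts were 14 for meclizine (26.9% of all tested genes), 7 for pizotifen (16.1%) and 5 for trichostatin A (13.1%). Col4a6 with meclizine then went from -0.38 (adjusted p = 0.0252) to -0.22 (0.113). The gained calls of Col4a1 with meclizine, Col6a3 with trichostatin A and Col5a3 with pizotifen were lost as well. Col4a5 with pizotifen was kept (-0.19, adjusted p = 0.0492). Col22a1 with meclizine (0.13, 0.0375) and Col18a1 (0.37, 0.0106) and Col4a4 (0.11, 0.0480) with trichostatin A were called there instead.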

How the data were processed

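RNA-Seq was measured in 48 samples of STHdh cells, 3 in each of 16 conditions, grouped by the sample titles. Per the labels and the study's methods, the authors trimmed poly(A)-selected, single-end reads with Trimmomatic 0.36 and quantified them with RSEM on a GRCm38 transcriptome. The deposited table holds 1 normalized abundance per gene and sample, read here as log2 values because they run from -2.34 to 18.62. The transformation is not given in the sources used here, low genes hardly vary in it, and counts were not recovered, so depth and counting error are unknown and no count model was used. No pseudocount was added.

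Genes with a symbol and a mean of at least 1 were tested (13409 of 18178). All 48 samples entered 1 linear model with terms for the 16 conditions and the collection day, fitted in limma 3.58.1 (R 4.3.3), whose variances were moderated along an abundance trend. Two-sided p-values were adjusted over all tested genes (Benjamini-Hochberg), and a gene was called at an adjusted p under 0.05. Exact permutation tests compared chain gaps. The procedure was tested on simulated data.

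In the labels, replicate numbers match collection days except for the first replicates of DKI and cyproheptadine. Deviations of same-numbered samples had a mean correlation of -0.0487 across pairs of conditions, and 9 of 120 pairs exceeded 0.1. Replicates within a condition correlated at 0.996 to 0.999.

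Per-sample values are printed for collagen genes that differed between the vehicle controls by at least 1, and for compounds for calls of at least 0.5 and the largest rise and fall. Some of these are given by the difference alone, and further values were added after they were seen. Of other lists, the 2 largest rises and 2 largest falls are named, with some genes added after their values were seen and some not reported here. The members, lists and rules were chosen with earlier results of these data known. Alternatives were other minimum means, other day terms, fits of the compared conditions alone, rescaling, leaving out single samples and controls of the same collection slots, and after seeing the data these controls without haloperidol replicate 2. Gene positions come from the GENCODE annotation of GRCm38 and promoters from RefSeq.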

Additional observations from a re-analysis of the deposited data

How the results depend on the processing

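Among the alternative values of every called collagen gene, 1408 kept their direction and were still called, 165 kept their direction and were no longer called, and 0 reversed. With the replicate number as a replicate block in place of the collection day, 23 collagen genes were called between the lines, and with no day term 23, and neither ended a call of a collagen gene in any comparison. With no day term, Col3a1 with sodium butyrate (0.31, adjusted p = 0.0465) and loxapine (-0.34, 0.0457) and Col10a1 with trichostatin A (-0.12, 0.0464) were called as well. Counts of collagen genes moved by over 1.5 times as follows, and the cause was not tested. Loxapine had 5 calls with no minimum mean, and with a minimum of 5, which leaves 19 collagen genes, sodium butyrate had 5 and nicotinamide 0. With only the compared conditions in the fit, which has fewer samples to estimate the spread, the counts were 6 for 4-deoxypyridoxine, 3 for trichostatin A, 4 for nicotinamide, 1 for nortriptyline, 3 for fingolimod phosphate, 12 for pizotifen and 2 for cysteamine. With slot-matched controls, 4-deoxypyridoxine had 4. Leaving out single samples gave 21 to 23 calls between the lines, 4 to 7 for loxapine, 0 to 3 for 4-deoxypyridoxine, 1 to 6 for trichostatin A, and 0 to 1 for nicotinamide, selisistat, nortriptyline and haloperidol. Col12a1 between the lines was lost with no minimum mean (adjusted p = 0.0536) and with only the compared conditions (0.257), where Col15a1 (0.0518) and Col10a1 (0.0627) were lost too. Rescaling moved the median difference of all genes by at most 0.017. Small differences of low genes are compressed by the table's scale and their precision cannot be read without counts.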
